A study of Mus musculus with 16 samples.

Results

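NF-kB is a family of transcription factors that switch on genes of inflammation, survival and stress, and 10 mouse genes of its core are described here: the subunits Rela, Relb, Rel, Nfkb1 and Nfkb2, the I kappa B inhibitors Nfkbia, Nfkbib and Nfkbie, the related nuclear protein Bcl3, and Tnfaip3, which encodes the inhibitor A20. They were picked by gene symbol, with the brightest probe set standing for a gene that has several. Each of the 9 genes named in the array annotation used here had 1 probe set, out of 22206 tested. Nfkb1, which encodes the p105 precursor of p50, was not among the named probe sets and is not analysed here.

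The subunits sit in the cytoplasm, bound by I kappa B proteins that cover their nuclear entry signals. Receptors for cytokines and microbial products activate the IKK kinase complex, which marks the I kappa B proteins for destruction, so that the dimers reach the nucleus and switch on target genes, Nfkbia and Tnfaip3 usually among them, which then shut the pathway off. In a second, slower branch the p100 precursor encoded by Nfkb2 is cut to p52, the partner of RelB. In tubule cells of the kidney the pathway is known for driving chemokine release after injury.

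The cells were BU.MPT, a cultured mouse line with proximal tubule origin that is 1 line and carries, as background knowledge of the line, a temperature-sensitive large T antigen. All 16 samples were grown at 39 °C without interferon gamma, and 700 pg of RNA went into each array. The control group was kept in 21% oxygen with 10% serum and 4.5 g/L glucose, and the control+B12 group had 0.3 µM cyanocobalamin, a form of vitamin B12, added to that. The H/R group had 3 h of hypoxia at about 1% oxygen in medium without glucose or serum, then 1 h of return to oxygen, glucose and serum, called reperfusion, and the H/R+B12 group went through the same with 0.3 µM cyanocobalamin. Each group holds 4 arrays, and whether these came from separate cultures is not stated, so a p-value here reflects the spread among these arrays, which may be technical. Oxygen, glucose and serum changed together, so their shares in any H/R difference cannot be told apart.

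Values are log2 signal, in which 1 unit is a doubling, and a difference between groups is given with its standard error (SE) or 95% interval from limma, a linear model fitted to all probe sets. A gene is called higher or lower where its p-value, adjusted over 22206 probe sets by Benjamini and Hochberg, is under 0.05. The spread of a probe set is estimated from all 16 arrays together, so the comparisons share it. Array medians lay between 5.21 and 5.37, arrays of 1 group correlated at 0.990 to 0.994 across probe sets, and the medians of the negative control features, a guide to background, lay between 5.72 and 6.23 and were higher by 0.12 in H/R arrays. Of 18 measured markers of tubule epithelium 7 were above that background on all 16 arrays, among them Pax8, Cdh16, Aqp1 and Mme. Another 10 were above it on none, including Lrp2, Cubn, Hnf4a and the solute transporter genes Slc34a1, Slc5a2, Slc5a12, Slc22a6 and Slc22a8. Markers of leukocytes (5 of 6), endothelium (4 of 5) and fibroblasts (3 of 4) were above background on no array, and the leukocyte marker Csf1r was above it on all 16.

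After H/R without B12 the subunit genes Rela, Relb and Nfkb2 rose, Bcl3 rose most, and the inhibitor gene Nfkbib rose, while Nfkbia and Tnfaip3 fell. Of the 9 measured genes 5 were called higher and 2 lower, beside 17.6% of all probe sets called, 8.11% higher and 9.54% lower. Shares over all probe sets, here and below, are a loose reference, since the array medians lay under those of the negative controls. The members and lists were also chosen with earlier results of these data known. The members' median log2 difference was 0.93, beside -0.02 over all probe sets. With B12 in both arms, on 8 other arrays, 6 were called higher and 2 lower, beside 18.7% called over all probe sets, 9.04% higher and 9.61% lower, and the median was 0.87 beside -0.04. The 4 H/R arrays lay wholly above or below the 4 control arrays in 8 of 9 members, as did 20.9% of all probe sets, and in 7 of 9 with B12, beside 21.5%. Over all probe sets 1801 were higher and 2118 lower after H/R, and 2133 and 1646 when arrays were centred on their medians. Under that centring no called member changed direction or lost its call, and Rel without B12 gained one.

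**Figure D1:**
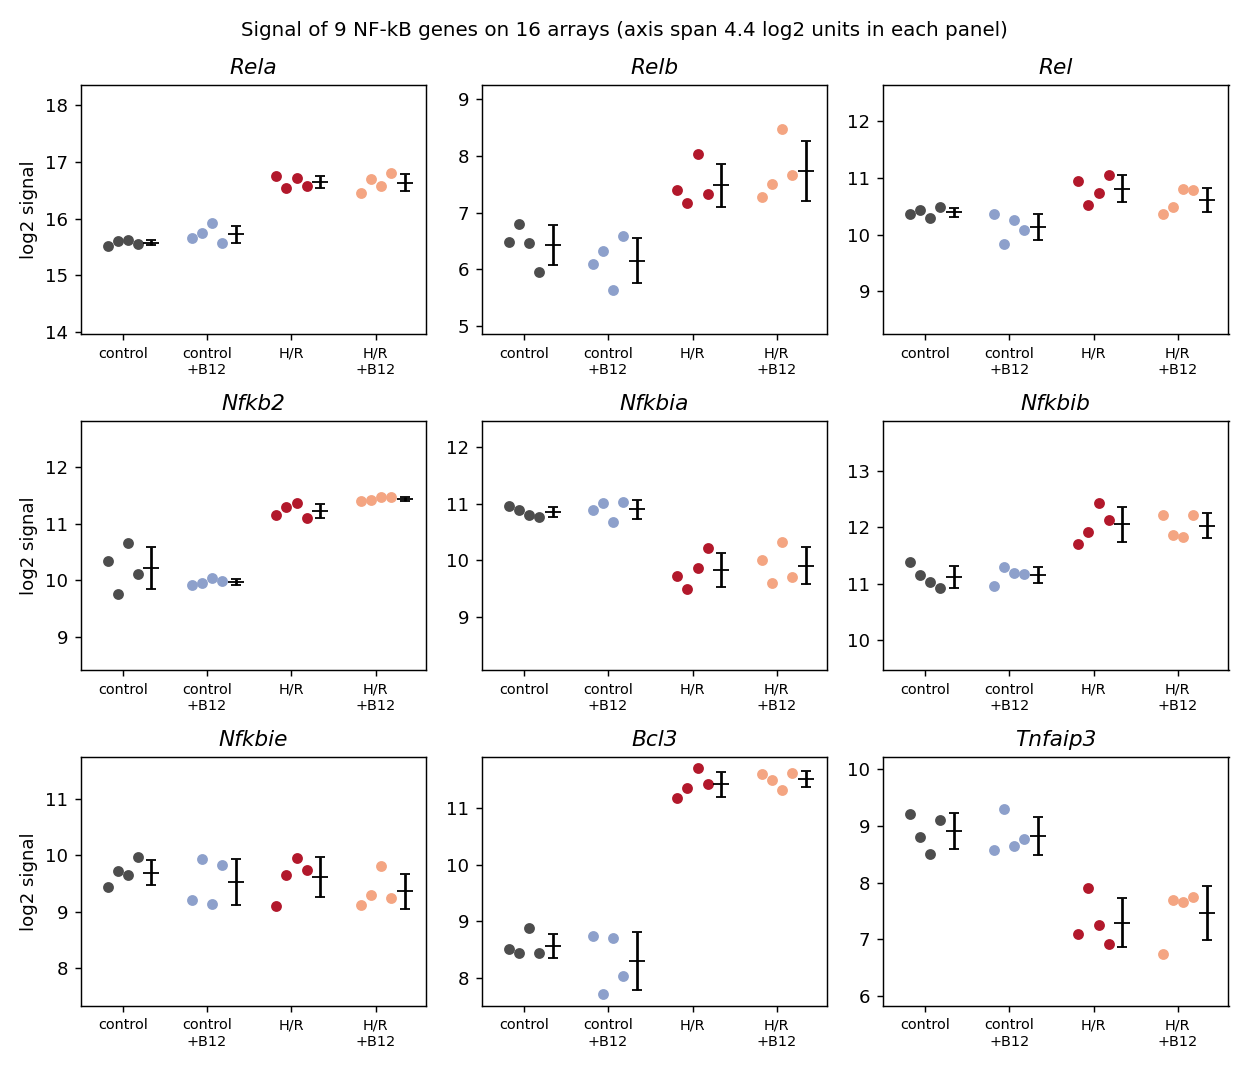
Log2 signal of the 9 measured genes (vertical axes, each spanning 4.4 log2 units) on the 16 arrays, with 1 point per array in replicate order and the group mean with its SD as a bar to the right of the points. Bcl3 separates most between control and H/R (means 8.57 and 11.42), Nfkbia and Tnfaip3 are lower after H/R, and the 4 groups of Nfkbie overlap.

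RelA, also called p65, is the subunit with the strong activation domain that pairs with p50 in the classical dimer. Its gene gave 15.52, 15.61, 15.62 and 15.55 in the control arrays and 16.76, 16.55, 16.73 and 16.58 in the H/R arrays. Rela was thus higher on each H/R array than on any control array, by 1.08 ± 0.12 (SE, n = 4 against 4, limma adjusted p = 1.41e-05), which is 2.11-fold with an interval of 1.76 to 2.53. With B12 the values were 15.67, 15.75, 15.92 and 15.57 in control+B12 and 16.46, 16.70, 16.58 and 16.80 in H/R+B12, again without overlap. That difference was 0.91 ± 0.12 (limma adjusted p = 6.5e-05).

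Nfkb2 encodes p100, which acts as an inhibitor while whole and as the subunit p52 once cut. Control arrays read 10.34, 9.76, 10.66 and 10.11 and H/R arrays 11.16, 11.30, 11.37 and 11.10. All H/R arrays lay above all control arrays, with a difference of 1.01 ± 0.16 (limma adjusted p = 0.000242), or 2.01-fold (interval 1.60 to 2.54). The B12 arms were tighter, at 9.92, 9.95, 10.05 and 9.99 against 11.40, 11.42, 11.48 and 11.47, with SDs of 0.06 and 0.04 beside 0.38 in control and 0.12 in H/R. Here the difference was 1.46 ± 0.16 (limma adjusted p = 7.77e-06), or 2.76-fold (interval 2.19 to 3.48). The SE is the same as without B12 because it pools the spread of all 16 arrays, so it does not reflect the tighter arms.

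RelB, the partner of p52, had a dim probe set. Control arrays gave 6.47, 6.81, 6.47 and 5.95, and H/R arrays 7.40, 7.17, 8.04 and 7.33. Relb was higher on all H/R arrays, by 1.06 ± 0.27 (limma adjusted p = 0.012), or 2.08-fold (interval 1.39 to 3.12). In the B12 arms it read 6.10, 6.32, 5.63 and 6.58 against 7.27, 7.51, 8.48 and 7.67, also without overlap, a difference of 1.58 ± 0.27 (limma adjusted p = 0.000612). It was above the median negative control on 15 of 16 arrays, control+B12 replicate 3 being the other, so its fold is uncertain.

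C-Rel, encoded by Rel and best known from lymphocytes, had the smallest H/R differences among the subunits. It gave 10.37, 10.44, 10.29 and 10.48 in control and 10.95, 10.53, 10.73 and 11.05 after H/R, without overlap. The difference of 0.42 ± 0.16 did not pass (limma adjusted p = 0.0836). With B12 the values were 10.37, 9.84, 10.26 and 10.08 against 10.37, 10.48, 10.80 and 10.79, which overlap, and 0.48 ± 0.16 passed (limma adjusted p = 0.0462). That call was lost in 15 of 24 alternative settings, among them a fit of only the groups compared (0.103), the replicate block (0.0515) and leaving out control+B12 replicate 2 (0.143), with a range of 0.0182 to 0.143 over all 24.

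The inhibitors went in different directions. The stretches of 250 bases before the annotated start sites of Nfkbia, Tnfaip3, Nfkbib and Nfkbie are shown because 2 of these genes fell together, 1 rose and 1 was not called. The first pair are textbook targets of NF-kB itself. Capitals mark matches to the kappaB consensus, the degenerate 10-base motif that NF-kB dimers bind, searched on both strands with overlapping matches kept. The sequences are RefSeq, GRCm38.p6, each on the strand of its gene and written 5′ to 3′.
Nfkbia, chr12:55492648-55492897, minus strand: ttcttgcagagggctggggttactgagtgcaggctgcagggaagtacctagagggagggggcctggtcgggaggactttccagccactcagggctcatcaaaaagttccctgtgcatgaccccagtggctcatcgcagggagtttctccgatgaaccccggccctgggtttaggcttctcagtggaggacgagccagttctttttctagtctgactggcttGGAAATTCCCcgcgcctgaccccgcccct
Tnfaip3, chr10:19015411-19015660, minus strand: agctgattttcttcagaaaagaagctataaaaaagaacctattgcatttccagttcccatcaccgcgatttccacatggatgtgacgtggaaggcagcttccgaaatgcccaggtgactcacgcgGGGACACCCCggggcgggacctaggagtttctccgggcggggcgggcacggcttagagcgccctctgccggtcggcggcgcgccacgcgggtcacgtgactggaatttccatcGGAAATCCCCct
Nfkbib, chr7:28766645-28766894, minus strand: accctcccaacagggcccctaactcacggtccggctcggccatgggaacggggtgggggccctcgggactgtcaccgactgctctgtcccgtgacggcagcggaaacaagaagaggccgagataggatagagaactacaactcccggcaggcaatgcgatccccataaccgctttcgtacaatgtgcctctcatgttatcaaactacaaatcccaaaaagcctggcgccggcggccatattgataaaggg
Nfkbie, chr17:45555450-45555699, plus strand: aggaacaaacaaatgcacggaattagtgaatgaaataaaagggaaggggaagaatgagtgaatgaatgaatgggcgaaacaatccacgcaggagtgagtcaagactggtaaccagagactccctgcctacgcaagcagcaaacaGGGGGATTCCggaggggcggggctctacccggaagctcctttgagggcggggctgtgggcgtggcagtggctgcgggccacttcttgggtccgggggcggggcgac

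Nfkbia held 1 match, 29 to 20 bases before its start, and Tnfaip3 held 2, at 125 to 116 and at 12 to 3 bases before it. Tnfaip3 has 2 listed starts, and only the window shown, of the more upstream start, held a match. In Nfkbie there was 1 match, at 106 to 97 bases, and in Nfkbib 0. Over the 8 members listed in the promoter table, taking the most upstream start listed for each, 5 windows held a match (Rel and Nfkb2 beside Nfkbia, Nfkbie and Tnfaip3), and Rela, Nfkbib and Bcl3 held 0. The Nfkb2 window, before the first of its 3 listed starts, lies wholly inside the annotated gene (all 250 bases), and those of Rela and Bcl3 overlap theirs by 99 and 69 bases, so none of these 3 is wholly upstream of its gene. Of 32851 promoter windows of that length 7.25% held a match. That share takes in every listed start of every gene and was not matched for base content. The member windows, at 1 start per gene, were 57.6 to 77.6% G and C, so it is a loose reference. Members with a match thus include the 2 that fell as well as Nfkb2, which rose. A match describes these letters only, and binding was not measured.

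Nfkbia encodes I kappa B alpha, the inhibitor that is destroyed and remade fastest in the classical pathway. Its signal was 10.96, 10.88, 10.79 and 10.77 in control and 9.72, 9.50, 9.87 and 10.22 after H/R. Each H/R array lay below each control array, and the signal fell by 1.02 ± 0.18 on the log2 scale (limma adjusted p = 0.000605), which is 2.03-fold. With B12 the arrays gave 10.88, 11.01, 10.67 and 11.03 against 10.00, 9.59, 10.32 and 9.70, again apart. The fall there was -0.99 ± 0.18 (limma adjusted p = 0.000778).

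Nfkbib encodes I kappa B beta, which also holds RelA and c-Rel dimers in the cytoplasm. Unlike Nfkbia it was higher after H/R, with 11.38, 11.15, 11.02 and 10.93 in control and 11.71, 11.92, 12.43 and 12.14 in H/R. The rise was 0.93 ± 0.17 (limma adjusted p = 0.000852), or 1.90-fold (interval 1.49 to 2.43), with no overlap. In the B12 arms 10.97, 11.30, 11.20 and 11.17 stood against 12.22, 11.86, 11.82 and 12.21, a difference of 0.87 ± 0.17 (limma adjusted p = 0.00138). The intervals of the H/R difference, 0.57 to 1.28 for Nfkbib and -1.40 to -0.65 for Nfkbia, lie on opposite sides of 0.

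For Nfkbie, which encodes I kappa B epsilon, the arrays ranged from 9.11 to 9.97 over all 16 and the 4 groups overlapped. The H/R difference was -0.08 (interval -0.56 to 0.40, limma adjusted p = 0.881) without B12 and -0.16 (interval -0.63 to 0.32, limma adjusted p = 0.718) with it. Both intervals end below the differences of Rel (0.42 and 0.48) on the upper side, and both still include a fall of that size. Leaving out control replicate 4 or H/R replicate 1 turned the first of these to 0.01 and 0.09.

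Bcl3, an I kappa B family protein that works in the nucleus with p50 and p52 homodimers and can activate as well as repress, showed the largest H/R difference of the members. Control arrays read 8.51, 8.44, 8.88 and 8.44, and H/R arrays 11.18, 11.36, 11.70 and 11.43. The lowest H/R array thus stood more than 2 log2 units above the highest control array. The difference of 2.85 ± 0.21 (limma adjusted p = 1.9e-07) is 7.21-fold, with an interval of 5.30 to 9.80. The 8 arrays without H/R, at most 8.88, all lay under the 95th percentile of the negative control features (10.1 to 10.6 by array) and the 8 H/R arrays above it, so the lower arm may hold background signal and the fold is uncertain. With B12 it was 8.73, 7.72, 8.71 and 8.03 against 11.60, 11.49, 11.32 and 11.62, a difference of 3.21 ± 0.21 (limma adjusted p = 4.76e-08) or 9.26-fold (interval 6.81 to 12.6). Its interval overlapped that of no other member in either comparison.

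A20, the product of Tnfaip3, edits ubiquitin chains on signalling proteins upstream of IKK and so ends the signal. Control arrays gave 9.22, 8.80, 8.51 and 9.11 and H/R arrays 7.10, 7.91, 7.26 and 6.92. Tnfaip3 was lower on all H/R arrays and fell by 1.61 ± 0.26 on the log2 scale (limma adjusted p = 0.000325), 3.06-fold. In the B12 arms the signals were 8.58, 9.31, 8.65 and 8.76 against 6.75, 7.70, 7.65 and 7.75, without overlap and with a difference of -1.36 ± 0.26 (limma adjusted p = 0.00126). On all 16 arrays Tnfaip3, Relb and Nfkbie stayed under the 95th percentile of the negative control features, so the sizes of their differences are uncertain. Rela and Nfkbib were above it on all 16, Rel on 11, Nfkb2 and Nfkbia on 9 each and Bcl3 on 8. The sizes for Rel, Nfkb2, Nfkbia and Bcl3 are thus uncertain too.

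**Figure D2:**
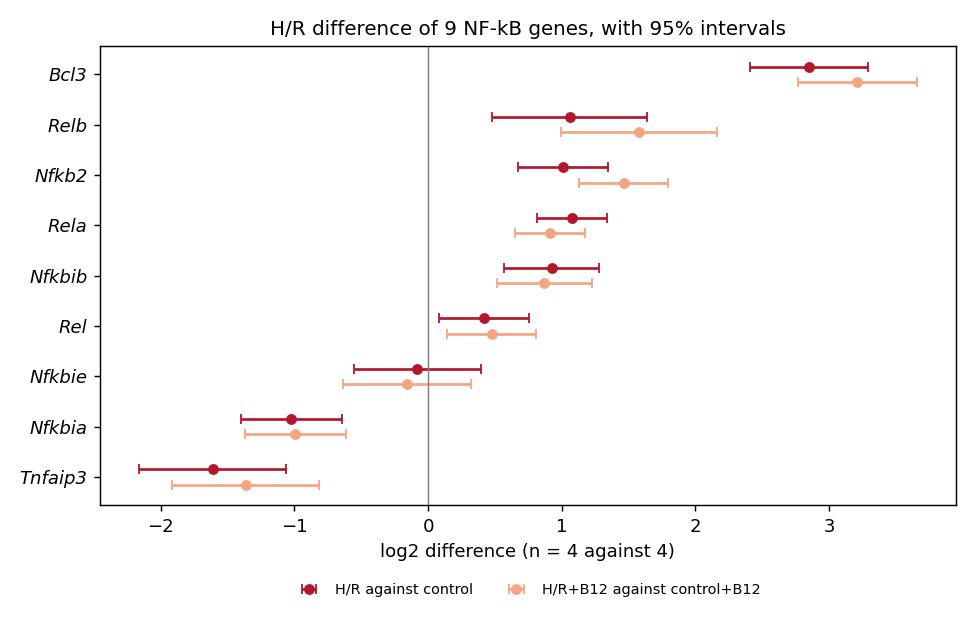
H/R difference of each measured gene on the log2 scale (horizontal axis), as points with 95% intervals, without B12 (dark) and with B12 in both arms (light), n = 4 against 4 in each. Bcl3 stands at 2.85 and 3.21, Relb, Nfkb2, Rela and Nfkbib lie from 0.93 to 1.08 without B12 and from 0.87 to 1.58 with it, the intervals of Nfkbie cross 0, and Nfkbia and Tnfaip3 lie below 0.

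B12 was compared with its absence in H/R cells and in control cells. No member was called in either comparison, and 0 of 9 had an unadjusted p under 0.05, beside 1010 of 22206 probe sets (4.55%) in H/R cells and 1280 (5.76%) in control cells. By limma 0 probe sets in all passed the adjusted threshold in either comparison (0%). In H/R cells the members' differences ran from -0.25 for Nfkbie to 0.25 for Relb, and in control cells from -0.27 for Relb to 0.15 for Rela. The intervals reached from -0.85 to 0.83 over the members of both comparisons, with both ends from Relb, whose dim signal makes the size of any change uncertain. Rela in H/R cells was at -0.02 (interval -0.28 to 0.24), and for Bcl3 the difference there was 0.09 (interval -0.35 to 0.54).

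Nfkb2 was the 1 member whose H/R and H/R+B12 arrays did not overlap, with 11.10 to 11.37 against 11.40 to 11.48, beside 2.87% of all probe sets, and its difference of 0.21 ± 0.16 did not pass (limma adjusted p = 1.00). In control cells B12 was at -0.24 ± 0.16 for Nfkb2. The interaction, which is the H/R difference with B12 minus that without, was 0.45 ± 0.22 (interval -0.02 to 0.93, limma adjusted p = 0.987), and for Relb 0.52 ± 0.39 (interval -0.31 to 1.34). For the other 7 it ran from -0.17 for Rela to 0.36 for Bcl3. No member and no probe set passed the adjusted threshold for the interaction (0 of 22206, 0%, with 1071, or 4.82%, and 0 of 9 members at an unadjusted p under 0.05).

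**Figure D3:**
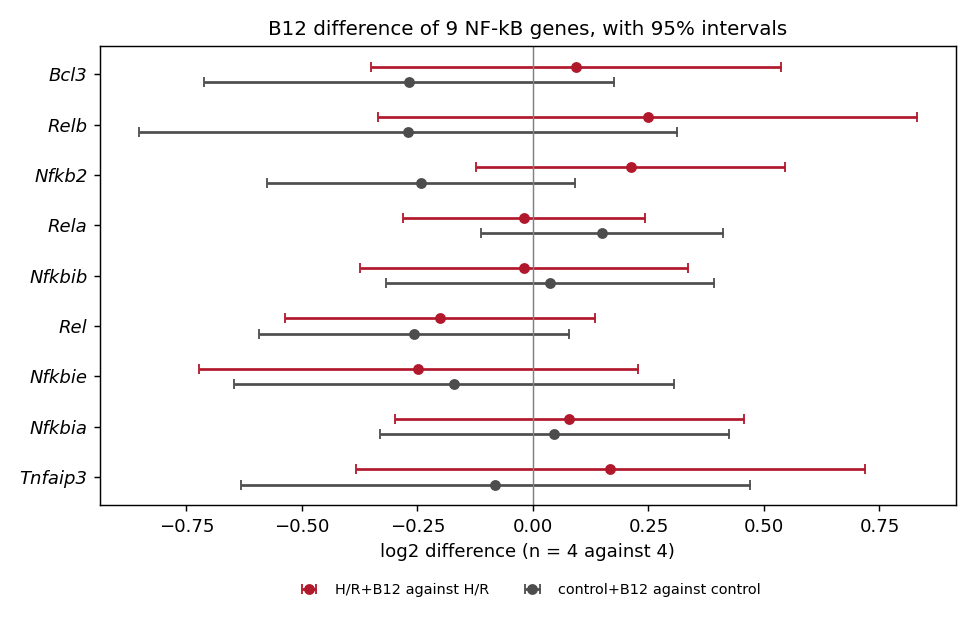
B12 difference of each measured gene on the log2 scale (horizontal axis), as points with 95% intervals, in H/R cells and in control cells, n = 4 against 4 in each. Every interval crosses 0, and the points lie between -0.27 and 0.25.

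The other genes of the pathway were grouped by role. Several had mean signals under the 95th percentile of the negative control features (10.1 to 10.6 by array), so the sizes of their differences are uncertain. In all 4 groups this held for Tnip2, Otud7b, Nkrf, Traf6, Birc3, Ikbke, Irak2, Ikbkb, Ikbkg and Tlr1. It also held for Tnip3 and Cxcl10 in control arrays and for Tlr3 and Plau in H/R arrays. Among 12 genes of A20 partners and ubiquitin editing 7 rose and 0 fell after H/R, beside 8.11% of all probe sets higher and 9.54% lower, with a median of 0.49. Tnip1, Tnip2 and Tnip3, which encode the ABIN proteins that bind A20 or NF-kB signalling proteins, rose by 1.22 ± 0.17, 1.45 ± 0.26 and 1.00 ± 0.24, and the deubiquitinase gene Otud7b by 1.17 ± 0.22. These partners were higher where Tnfaip3 itself was lower. With B12 in both arms 7 rose as well (9.04% of all probe sets did), 6 of them the same genes, and this count was 3 without H/R+B12 replicate 3 and 4 without control+B12 replicate 3. Of 7 other I kappa B family genes and modulators 0 rose and 1 fell, with a median of -0.10, a share near the 17.6% called over all probe sets. The 1 was Commd1, whose product helps remove RelA from chromatin, at -1.46 ± 0.17 without B12 and -1.35 ± 0.17 with it. Nkrf, a repressor of NF-kB targets, was at 0.54 ± 0.24 without B12 (limma adjusted p = 0.142) and rose by 0.96 ± 0.24 with it.

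Of 19 measured genes of the IKK complex with its kinases and adaptors 4 rose and 1 fell, with a median of 0.11, and over all probe sets 8.11% rose and 9.54% fell. The ubiquitin ligase gene Traf6 rose by 0.77 ± 0.17, its partners Tab2 and Tab3 by 0.67 ± 0.15 and 0.88 ± 0.20 and Birc3, an inhibitor of cell death and NF-kB target, by 0.66 ± 0.15. Ikbke, which encodes a kinase related to IKK, was at -0.88 ± 0.21. The core subunit genes Ikbkb and Ikbkg were not called, at -0.48 ± 0.23 and -0.20 ± 0.29, and were picked for mention after their values were seen. Chuk, the other core subunit gene, was not among the named probe sets, so the core complex is only partly covered. The same holds for Ripk1, Ripk2, Traf3, Irak1 and Irak4, out of 25 genes listed. With B12 3 rose and 1 fell, beside 9.04% and 9.61% of all probe sets, and 5 rose when arrays were centred on their medians. Of the 4 that rose without B12 Traf6 and Birc3 were called again. Irak2, of the Toll-like receptor branch, rose by 0.91 ± 0.19 there and was at 0.21 ± 0.19 without B12. For Birc3 and Otud7b with B12 (0.51 and 0.80) the call was lost on leaving out single arrays, at adjusted p = 0.0959 and 0.0558 at most.

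Among 14 receptors that signal to NF-kB 3 rose and 2 fell in both H/R comparisons, with medians of 0.13 and 0.04, beside 17.6% and 18.7% of all probe sets called. The TWEAK receptor Tnfrsf12a rose by 2.02 ± 0.14 and the Toll-like receptor Tlr2 by 1.25 ± 0.17, and Tlr3 was at -1.46 ± 0.15 and Tlr1 at -2.10 ± 0.29. The third to rise was Tnfrsf1a, the main TNF receptor (0.64 ± 0.16), named here after its value was seen. Tlr1 was above the median negative control on 7 of 16 arrays, so the size of its fall is uncertain. Tnfrsf1b, Cd40, Tlr6 and Ager were above that median on no array.

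Target genes of NF-kB outside the 10 members rose in 15 of 33 cases and fell in 2, without B12 and with it, and the 15 and the 2 were the same genes. Over all probe sets, many of them near background, 8.11% and 9.04% rose and 9.54% and 9.61% fell. The targets' medians were 0.54 and 0.46. Inducible nitric oxide synthase Nos2 rose by 3.23 ± 0.18, the chemokine Cxcl10 by 2.68 ± 0.20, the cytokine Lif by 2.53 ± 0.15 and the survival gene Bcl2l1 by 1.06 ± 0.11, and with B12 the early response gene Ier3 rose by 1.87 ± 0.19. The 2 that fell, named after their values were seen, were the protease gene Plau (-0.83 ± 0.21) and the transcription factor gene Irf1 (-0.59 ± 0.17). Of the 16 not called 8, among them Il6, Tnf, Icam1 and Ccl5, were above the median negative control on no array, so they were near background in all 4 groups. Others not called were above it on all 16 arrays, so detected targets did not all rise. Among these, named after their values were seen, were Lcn2 (0.20 ± 0.13), Sod2 (0.27 ± 0.16), Cxcl5 (-0.00077 ± 0.15) and Vcam1 (-0.26 ± 0.22), without B12. Several of these genes also respond to hypoxia, serum or other stress factors, and NF-kB activity was not measured.

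**Figure D4:**
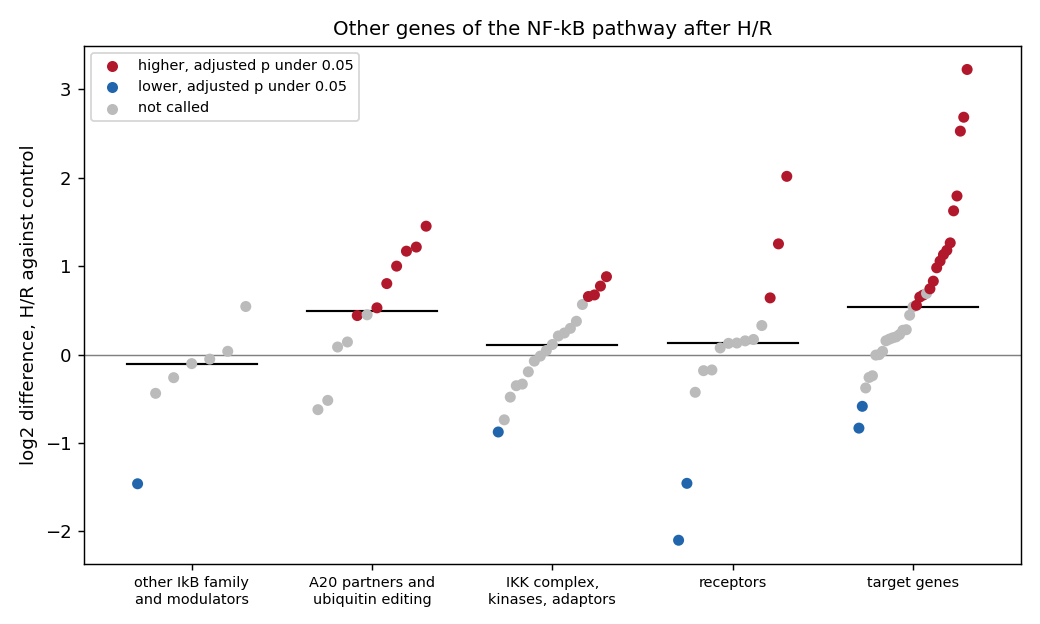
Log2 difference of H/R against control (vertical axis) for each measured gene of 5 pathway lists, with 1 point per gene and a line at each list's median. Red points were called higher, blue lower and grey neither, with 15 of 33 target genes and 7 of 12 A20 partner genes red.

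The genes whose signal ran most like that of a member over the 16 arrays were sought for Bcl3, Tnfaip3 and Relb, the 3 with the largest mean H/R difference. For Bcl3 they were Lif, Pdlim5, Tnfrsf12a, Egln1 and Plod2, at Pearson r of 0.984 to 0.987. For Tnfaip3 they were Amotl2, Rragb, Nceh1, Med12l and Agt (0.937 to 0.945), and for Relb Leo1, Fnip1, Sh2b3, Spring1 and Yy1 (0.927 to 0.938). The arrays form a control and an H/R cluster, so these values mostly restate the H/R difference. Within the 8 H/R arrays r was 0.55 for Lif and 0.60 for Tnfrsf12a with Bcl3, and -0.08 for Pdlim5 and Egln1, while Yy1 and Leo1 were at 0.95 and 0.93 with Relb. In the 8 control arrays these last 2 were at 0.49 and 0.65. The order for Bcl3 was reversed there, with Egln1 at 0.76 and Pdlim5 at 0.62, beside 0.55 for Lif and 0.50 for Tnfrsf12a. All were picked by r over the same 16 arrays, so the values within 8 of them partly reflect that choice.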

How the data were processed

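Expression was measured on arrays in 16 samples, 4 groups of 4, grouped by the sample titles. The free-text descriptions of some treated samples read B13 to B15 where the titles read B12, and the titles were followed. The deposited values are log2 signal per probe set, which the authors computed by RMA (robust multi-array averaging) in Affymetrix Expression Console, with Transcriptome Analysis Console also named, per the submitters' processing notes. Their versions and the genome build are not given here. RMA normalizes arrays to each other, so a shift shared by all genes is removed, and it compresses changes of dim genes.

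Of 28846 features 6640 controls were left out and 22206 probe sets tested, 19572 of them with 1 gene symbol from the platform annotation and 2634 with none. A single limma model (3.58.1, R 4.3.3) of 4 group means took in all 16 arrays, with moderated variances (4.23 prior degrees of freedom) and two-sided tests, adjusted by Benjamini and Hochberg over all probe sets in each comparison. The comparisons were H/R against control without and with B12, B12 against none in both states, and the interaction. The fit was tested on simulated data. The number of arrays limits the precision. The members and lists were chosen with earlier results of these data known.

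Named were all members, up to 4 called genes of smallest p per list and comparison, and the 5 genes of highest Pearson correlation with each of 3 members, passing over predicted and small RNA genes. Alternatives were array weights, a robust fit with an intensity trend, a fit of each pair of groups alone, a replicate block, quantile normalization, centring on array medians, a filter on the dimmest 25%, the dimmer probe set per gene and leaving out each array. Figures used matplotlib 3.10.9 under Python 3.11.15.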

Additional observations from a re-analysis of the deposited data

Results flagged for a closer look

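Within each group of 4 arrays, the highest or lowest value of each member was set against the other 3, and 2 of 36 such groups held an array that stood apart by Dixon's test (chance alone gives about 1 in 20). Bcl3 read 8.88 on control replicate 3, beside 8.44 to 8.51 on the other 3 control arrays. Tnfaip3 read 6.75 on H/R+B12 replicate 1, beside 7.65 to 7.75 on the others. Without that array the Tnfaip3 difference with B12 was -1.12 (limma adjusted p = 0.00419). No difference between B12 states in the H/R response was called.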

How the results depend on the processing

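Over 24 alternatives each, the 7 members called without B12 and the same 7 with it kept direction and call in all, with adjusted p at most 0.047 (Relb). Many of these settings leave a member's difference as it was, so only its call could change. They are the replicate block, the intensity trend, the filter, the fit of each pair and the dimmer probe set. Leaving out an array outside the comparison is another. Rel was called with B12 at 0.0462 and lost that call in 15 of 24, and without B12 it was called in 2 of 24 (arrays centred, 0.0387, and without H/R replicate 2, 0.047). Members called numbered 5 to 6 higher and 2 lower in either H/R comparison. Probe sets called after H/R ranged from 3315 to 4517 of 22206, and with B12 from 3411 to 4725. For B12 in H/R cells and in control cells, leaving out 1 array gave 0 to 1 probe sets called in each, the 1 arising without H/R replicate 1 and without control replicate 2.

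Differences of uncalled members near 0 changed sign when single arrays were left out. For H/R against control Nfkbie ran from -0.19 to 0.087. For B12 in H/R cells Rela ran from -0.075 to 0.041, Relb from -0.0021 to 0.43, Nfkbia from -0.062 to 0.21 and Nfkbib from -0.13 to 0.11. In control cells Nfkbib ran from -0.025 to 0.12 and Tnfaip3 from -0.24 to 0.022. The interactions ran from -0.044 to 0.14 for Rel, -0.11 to 0.16 for Nfkbia, -0.17 to 0.069 for Nfkbib and -0.24 to 0.057 for Nfkbie, and with quantile normalization that of Nfkbia was -0.015. The cause was not tested.

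In the pathway lists, small counts moved: genes called lower without B12 ranged from 0 to 2 for A20 partners, 1 to 3 for the IKK list and 1 to 2 for targets. With B12, IKK genes called higher ranged from 2 to 5 (5 with arrays centred) and A20 partners from 3 to 7. In the deviations of probe sets from their group means no pairing by replicate number was seen. Those of same-numbered arrays correlated at -0.07 to 0.08, and 1 or 2 of 4 numbers matched best with their own. The negative control median, however, was highest on replicate 1 in each of the 4 groups. It was 6.10 there in control, 6.08 in control+B12, 6.23 in H/R and 6.17 in H/R+B12. These values cannot tell whether same-numbered arrays were cultured or run together. With the replicate block 5 members were higher and 2 lower in both H/R comparisons, and the block changed no other member call than that of Rel (adjusted p = 0.0515). Signal near background limits the sizes for Relb, Nfkbie and Tnfaip3 in all groups and for Bcl3 in the arrays without H/R. It may also limit them for Nfkb2 in most arrays without H/R, for Nfkbia in most H/R arrays and for Rel on some arrays.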
